A study of Mus musculus with 30 samples.

Results

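MHC class I antigen presentation genes were described in mammary tumours of mice given a heme oxygenase-1 inhibitor, chemotherapy or both. The 10 members were chosen by symbol and not by their values. They were the class I heavy chains H2-K1 and H2-D1, the light chain B2m, the peptide loading genes Tap1, Tap2 and Tapbp, the immunoproteasome subunits Psmb8, Psmb9 and Psmb10, and the transactivator Nlrc5. All 10 were found among the 21841 genes of the table, and all 10 passed the filter on low counts that left 13663 genes tested.

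The tumours came from MMTV-PyMT mice (FVB/N-Tg(MMTV-PyVT)634Mul/J), in which the mouse mammary tumour virus promoter drives the polyoma middle T oncogene in mammary epithelium and tumours arise without implantation. All 30 animals carried this transgene, also where the labels call the genotype WT, and the study describes each group as a cohort of 5 mice and tumours. The 6 groups of 5 libraries received vehicle, 5-fluorouracil (5-FU, 40 mg/kg every 4 days), gemcitabine (64 mg/kg every 7 days), KCL-HO-1i (25 µmol/kg daily), KCL-HO-1i together with 5-FU (the 5-FU combination, plotted as KCL-HO-1i/5-FU) or with gemcitabine (the gemcitabine combination, plotted as KCL-HO-1i/gemcitabine) at the same doses. Per the labels, drugs were injected intraperitoneally and tumours were taken after 72 hours of treatment. The text of the study gives another time and gemcitabine dose, and the labels give no age. KCL-HO-1i inhibits heme oxygenase-1, which degrades heme, while 5-FU and gemcitabine are cytotoxic base and nucleoside analogues.

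Class I molecules display peptides from a cell's own proteins to CD8+ T cells. The proteasome cuts proteins into peptides, the TAP transporter carries these into the endoplasmic reticulum, and tapasin helps to load them on the heavy chain, which is paired with beta-2 microglobulin. Interferon-gamma raises the genes of this pathway together in many cell types, partly through the transactivator NLRC5, and tumours that lose the pathway can escape T cells.

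Total counts per library ran from 10067698 to 13622395, and values are given as CPM, counts scaled to a common library total after TMM normalisation. The tissue label was checked against luminal epithelial markers, which were high in every library, with Krt8 between 567 and 1611 CPM and Epcam between 590 and 1502 CPM (n = 30). T cell markers were low. Cd8a lay between 0 and 3.48 CPM and Cd3e between 0 and 3.48 CPM, where 3 reads correspond to between 0.215 and 0.302 CPM.

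Of the 10 members 8 had a promoter in the RefSeq table of GRCm38.p6, and Tap2 and Nlrc5 had no entry. The 200 bases before the start of transcription are shown for the heavy chains, for B2m and for Tap1. Capitals mark the core of an interferon response element, either GAANNGAAA or GAAA and GAAA with any 2 bases between them, and TGACG, the core of a cyclic AMP response element, each searched on both strands. The windows of Tapbp, Psmb8 and Psmb10, which are not shown, held none of these elements. A link between these elements and the levels of the genes was not tested.
H2-K1, chr17:34000348-34000547, minus strand: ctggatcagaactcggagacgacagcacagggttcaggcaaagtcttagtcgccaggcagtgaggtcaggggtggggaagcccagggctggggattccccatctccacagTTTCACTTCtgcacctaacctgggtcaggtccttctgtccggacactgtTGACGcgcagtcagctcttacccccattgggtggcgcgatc
H2-D1, chr17:35262894-35263093, plus strand: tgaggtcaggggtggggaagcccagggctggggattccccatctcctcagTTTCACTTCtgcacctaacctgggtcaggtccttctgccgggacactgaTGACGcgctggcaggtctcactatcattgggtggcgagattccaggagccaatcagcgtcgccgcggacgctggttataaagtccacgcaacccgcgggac
B2m, chr2:122147487-122147686, plus strand: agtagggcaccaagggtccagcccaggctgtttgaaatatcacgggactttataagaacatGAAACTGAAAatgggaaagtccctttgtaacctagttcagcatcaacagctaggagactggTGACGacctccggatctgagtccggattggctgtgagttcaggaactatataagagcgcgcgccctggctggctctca
Tap1, chr17:34187356-34187555, plus strand: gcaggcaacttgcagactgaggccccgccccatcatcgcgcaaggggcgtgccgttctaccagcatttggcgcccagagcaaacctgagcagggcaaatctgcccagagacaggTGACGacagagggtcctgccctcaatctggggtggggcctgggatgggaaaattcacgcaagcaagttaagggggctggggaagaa

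The windows of H2-K1 and H2-D1 held both elements in the same order, with GAANNGAAA at -90 to -82 from the start of H2-K1 and at -150 to -142 of H2-D1. These distances depend on the RefSeq starts. The H2-D1 window shown lies inside the H2-D1 gene interval given below, which is from another annotation and starts earlier. The same holds for the windows of Tapbp, Psmb8 and Psmb9, which are not shown. Bases before these earlier starts were not searched. GAANNGAAA was in 2 of the 8 windows of 300 bases against 7.56% of the 27025 windows in the table. The form with both GAAA was in 1 (B2m, -139 to -130) against 3.49%, and a narrow NF-kappaB form (GGGA, any base, TTCCC) was in 0 of the 8 against 0.329%. That form does not cover all kappaB sites: a kappaB-like run, left in lower case, can be read in the printed H2-K1 and H2-D1 windows, and since it was noticed there after the search no share is given for it. TGACG was in 5 of the 8 against 21.0% of all, and the gamma-activated sequence TTCNNNGAA was in 1 (Psmb8) against 8.47%. The windows of Tap1 and Psmb9 are read in opposite directions from one shared stretch and overlap by 275 bases, so their TGACG is the same site. A match describes these letters only, and the sequence is that of the reference strain.

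Of the members 7 lie on chromosome 17. H2-K1 (chr17:33996017-34000347, minus strand), Tapbp (chr17:33915899-33929292, plus), Psmb9 (chr17:34181987-34187764, minus), Tap1 (chr17:34187553-34197225, plus), Psmb8 (chr17:34197721-34201454, plus), Tap2 (chr17:34203527-34216321, plus) and H2-D1 (chr17:35262730-35267499, plus) are on chromosome 17 in GRCm38. B2m is at chr2:122147686-122153083 (plus), Psmb10 at chr8:105935735-105938444 (minus) and Nlrc5 at chr8:94434356-94527272 (plus). Reads of the heavy chains are uncertain between copies. Of the 31-base words in the coding transcripts of H2-D1 27.6% also occur in transcripts of other genes, and of those of H2-K1 20.3%, against 0% for B2m, Psmb8, Psmb9, Psmb10 and Nlrc5. FVB/N mice carry another class I haplotype than the C57BL/6 reference, and the part of this in the heavy chain values was not tested. Tap1 and Psmb9 overlap on opposite strands, as do B2m and Patl2, and Tapbp overlaps Zbtb22 on the same strand. The library kit was stranded, but the strand setting of the counting is not given in the sources used here, so reads of overlapping ends cannot be told apart.

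Per kilobase of transcript, the molecules of the cell surface were the most abundant. Over the 30 libraries H2-D1 stood at 504 ± 165 CPM per kilobase (SD, n = 30), B2m at 341 ± 168 and H2-K1 at 160 ± 53.0. Tapbp, which encodes tapasin, stood at 81.7 ± 16.3, and the immunoproteasome subunits Psmb8 and Psmb10 at 34.1 ± 12.03 and 29.0 ± 7.15. Tap1, Psmb9 and Tap2 followed at 16.9 ± 5.62, 16.7 ± 6.14 and 13.4 ± 3.28 CPM per kilobase, and these 3 neighbours differed by less than their spread. Nlrc5, which encodes a transactivator of class I genes, was lowest at 0.748 ± 0.600 CPM per kilobase.

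**Figure D1:**
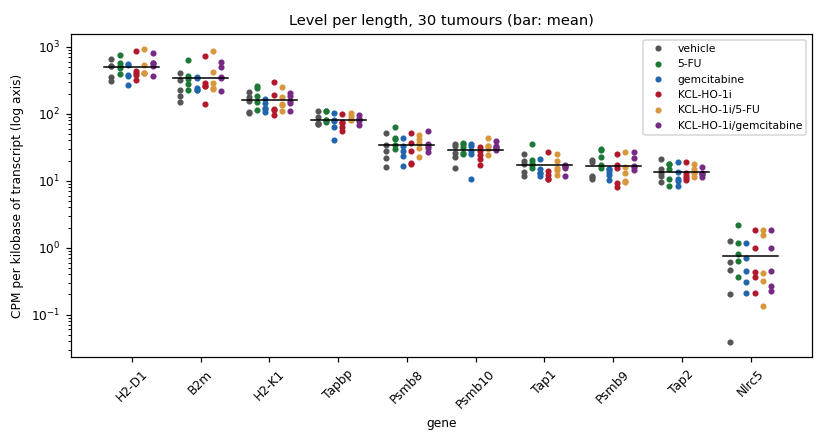
Level of each class I gene in CPM per kilobase of transcript on a log axis, with 1 point for each of the 30 tumours coloured by treatment group and a bar at the mean. H2-D1, B2m and H2-K1 stand highest, and Nlrc5 stands at or below 2.15 CPM per kilobase in every tumour.

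No member passed an adjusted p of 0.05 in any of the 12 comparisons (edgeR quasi-likelihood test with Benjamini-Hochberg adjustment over all genes tested), nor with DESeq2 or limma-voom (Benjamini-Hochberg). By edgeR the share of all tested genes past that threshold was 0% in 11 comparisons and 0.0586% for KCL-HO-1i averaged over its 3 backgrounds. The other tools called more genes outside the members, up to 8.38% by DESeq2 in that average and 6.49% in the gemcitabine combination against vehicle, where limma-voom called 9.59%. At an unadjusted p under 0.05, 1 of the 10 members was called, Psmb9 in 5-FU against vehicle, and 0 in each other comparison. By DESeq2 the unadjusted count was 1 in 5-FU, where 4.48% of all genes were past that threshold, and 1 in the 5-FU combination against 5-FU, with 12.7% of all. By limma-voom it was 2 in 5-FU (7.24% of all genes), 1 in the 5-FU combination against 5-FU (14.9%) and 2 for the interaction of KCL-HO-1i with 5-FU (14.2%), and by both tools it was 0 elsewhere. In bulk tumours, fewer cells that express a gene and less RNA of it per cell cannot be told apart. Each group mean lay within the spread of its neighbour in the order of levels, for all 5 neighbouring pairs of groups and all 10 members.

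**Figure D2:**
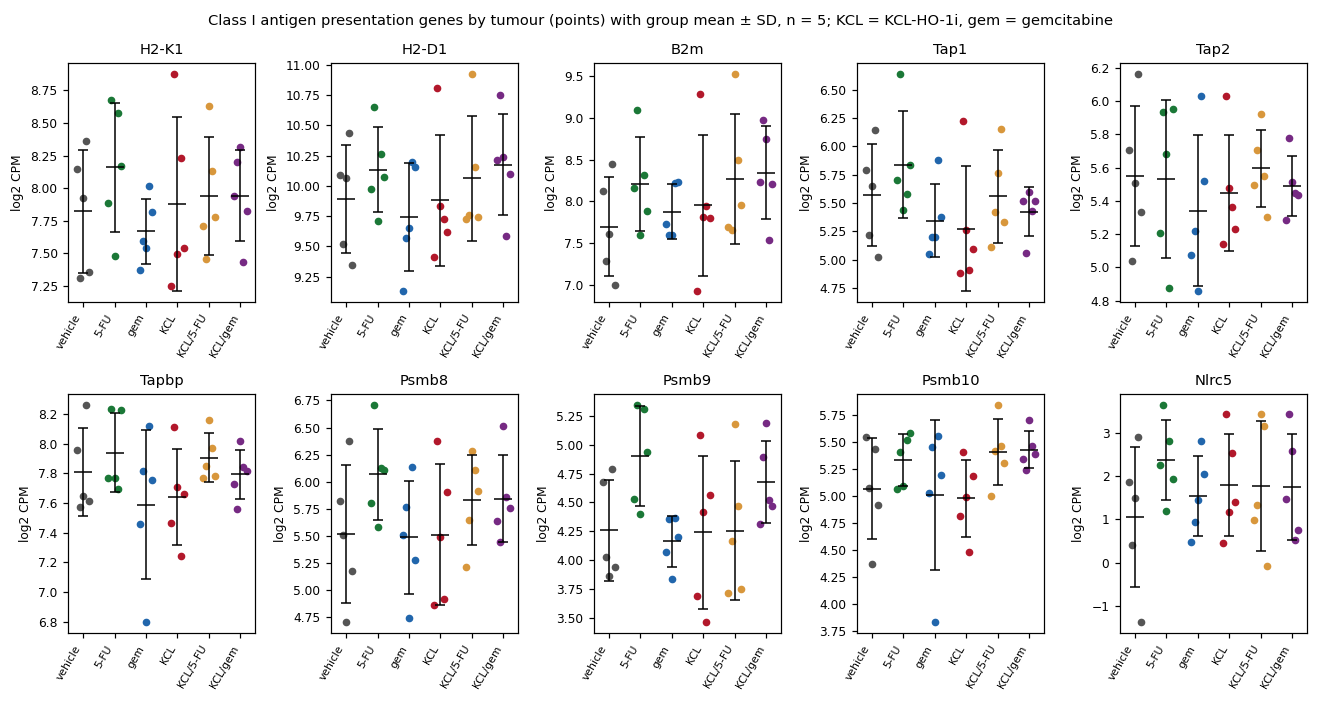
Log2 CPM of each class I gene by treatment group, with 1 point per tumour and the group mean ± SD (n = 5). Each treated group overlaps with vehicle for every gene. The tumours 5-FU replicate 2, KCL-HO-1i replicate 2 and 5-FU combination replicate 3 are high in several panels.

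The heavy chains H2-K1 and H2-D1, which hold the peptide, had overlapping values in all groups. H2-D1 stood at 1089, 734, 1073, 1386 and 652 CPM in vehicle (replicates 1 to 5), at 1004, 1605, 837, 1226 and 1079 in 5-FU, and at 561, 761, 805, 1177 and 1139 in gemcitabine. It stood at 682, 1795, 914, 846 and 784 CPM in KCL-HO-1i, at 847, 865, 1942, 1142 and 856 in the 5-FU combination, and at 1186, 1718, 1209, 769 and 1093 in the gemcitabine combination. All 5 treated groups overlapped with vehicle, and within KCL-HO-1i and the 5-FU combination a single tumour stood far above the other 4. H2-K1 ranged from 152 CPM in KCL-HO-1i replicate 1 to 470 CPM in KCL-HO-1i replicate 2, with group means from 206 ± 36.6 in gemcitabine to 299 ± 97.1 in 5-FU (SD, n = 5). Against vehicle the log2 fold change of H2-D1 in the gemcitabine combination was 0.28 (95% interval -0.31 to 0.86), and that of H2-K1 in 5-FU was 0.34 (-0.24 to 0.93).

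B2m, the light chain without which heavy chains do not reach the cell surface, varied more. It stood at 278, 156, 196, 349 and 128 CPM in vehicle, at 287, 545, 193, 317 and 235 in 5-FU, and at 212, 194, 193, 299 and 301 in gemcitabine. It stood at 121, 622, 224, 246 and 222 CPM in KCL-HO-1i, at 207, 202, 737, 359 and 249 in the 5-FU combination, and at 300.5, 503, 431, 186 and 296 in the gemcitabine combination. The lowest and the highest of the 30 tumours, which differed 6.07-fold, had both received KCL-HO-1i. The vehicle mean was the lowest of the 6, and the log2 fold change against vehicle was 0.66 (-0.15 to 1.48) in the 5-FU combination and 0.63 (-0.18 to 1.45) in the gemcitabine combination. The adjusted p was 0.393 and 0.404 in these comparisons (edgeR, Benjamini-Hochberg).

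Of the peptide loading genes, Tap1 and Tap2 encode the subunits of the transporter. Tap1 stood at 55.2, 37.1, 50.04, 70.7 and 32.4 CPM in vehicle and at 51.9, 99.5, 43.3, 47.7 and 56.8 in 5-FU. In KCL-HO-1i it stood at 29.3, 74.5, 38.3, 29.9 and 34.1 CPM, so that replicate 2 was high and the other 4 lay below the vehicle median of 50.04. Group means in the other groups were 41.3 ± 10.2 CPM in gemcitabine, 48.5 ± 14.4 in the 5-FU combination and 43.1 ± 5.92 in the gemcitabine combination (SD, n = 5). The log2 fold change of Tap1 in KCL-HO-1i against vehicle was -0.25 (-0.79 to 0.29), and -0.59 without that library (unadjusted p = 0.0236 and adjusted p = 0.400 by edgeR). Tap2 had group means between 42.1 and 48.7 CPM, and 5.83% of its variance lay between groups, the lowest share of the 10. Tapbp had group means between 201 and 248 CPM, and its largest difference from vehicle was -0.18 (-0.57 to 0.20) in gemcitabine. Its lowest value, 111 CPM in gemcitabine replicate 3, stood apart from the other 4 tumours of that group, at 176 to 278 CPM.

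The immunoproteasome subunits replace constitutive ones and change which peptides are cut. Psmb9 stood at 25.4, 16.1, 14.3, 27.5 and 15.2 CPM in vehicle and at 22.9, 40.5, 20.9, 39.5 and 30.5 in 5-FU. All 5 tumours given 5-FU lay above the vehicle median of 16.1, but 2 of them lay below the highest vehicle tumours, so the groups overlapped. The log2 fold change was 0.65 (0.04 to 1.26), with an unadjusted p of 0.0373 and an adjusted p of 0.999 (edgeR, Benjamini-Hochberg). Of all tested genes 1.65% were higher at that unadjusted threshold in this comparison, and 3.89% were past it in either direction, against 1 of the 10 members. The call was lost without vehicle replicates 2, 3 or 5 or 5-FU replicates 2, 4 or 5, when the log2 fold change was 0.58, 0.54, 0.56, 0.52, 0.54 and 0.65 with unadjusted p between 0.0503 and 0.104. Over the alternatives the adjusted p ran from 0.628 to 1.00.

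Markers of several other cell types were also higher on average in 5-FU, none at an adjusted p under 0.05 (edgeR, Benjamini-Hochberg). The summed T and NK cell list ran from 4.66 to 14.7 CPM in vehicle and from 10.7 to 30.3 CPM in 5-FU, with all 10 tested genes above 0 in log2 fold change, 2 of them at an unadjusted p under 0.05, and a median of 1.14. Of its 14 genes Ifng was at 0 in all vehicle tumours. The macrophage list ran from 254 to 722 CPM in vehicle and from 238 to 1111 CPM in 5-FU, with 10 of 10 genes above 0, a median of 0.65 and no gene at 0. Fibroblast genes were above 0 in 7 of 7 (median 0.83), endothelial genes in 6 of 6 (median 0.37) and skeletal muscle genes in 7 of 7 (median 2.74). Luminal epithelial genes were above 0 in 2 of 8 (median -0.10) and adipocyte genes in 3 of 7 (median -0.13). In gemcitabine, where Psmb9 was at -0.14, T and NK cell genes were above 0 in 10 of 10 (median 0.83) and macrophage genes in 8 of 10 (0.34). Fibroblast genes were so in 7 of 7 (0.77), endothelial in 5 of 6 (0.26) and skeletal muscle in 7 of 7 (2.33). The part of these cells in the Psmb9 difference in 5-FU was not tested.

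In the remaining groups Psmb9 was lower than in 5-FU or overlapped with it. It stood at 16.6, 20.3, 14.1, 20.4 and 18.2 CPM in gemcitabine, at 12.7, 33.8, 21.2, 10.8 and 23.4 in KCL-HO-1i, and at 13.0, 17.7, 36.0, 21.97 and 13.2 in the 5-FU combination. In the gemcitabine combination it stood at 19.6, 29.6, 36.3, 22.8 and 22.01 CPM, and the 4 highest of these lay above every gemcitabine tumour. Adding KCL-HO-1i to gemcitabine gave a log2 fold change of 0.54 (-0.07 to 1.15), and adding it to 5-FU gave -0.60 (-1.21 to 0.01). The interaction with 5-FU, which asks whether KCL-HO-1i acted differently on that background, was -0.65 (-1.51 to 0.21) and that with gemcitabine 0.49 (-0.37 to 1.35), with adjusted p of 0.666 and 1.00 (edgeR, Benjamini-Hochberg).

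Psmb8 stood at 56.4, 45.3, 25.9, 82.9 and 36.1 CPM in vehicle and at 55.9, 104, 47.8, 69.7 and 68.99 in 5-FU, a log2 fold change of 0.49 (-0.16 to 1.14). All 5 tumours given 5-FU exceeded the vehicle median of 45.3 and the groups overlapped. With all libraries the unadjusted p was 0.131 (edgeR). Without vehicle replicate 4, the highest tumour of its group, the log2 fold change was 0.76 (unadjusted p = 0.0248 and adjusted p = 0.998 by edgeR). Psmb10 was lowest in KCL-HO-1i alone, with a mean of 32.1 ± 7.69 CPM, and stood at 34.7 ± 12.9 in gemcitabine, 34.8 ± 10.5 in vehicle, 40.6 ± 6.75 in 5-FU, 43.0 ± 9.24 in the 5-FU combination and 43.2 ± 5.38 in the gemcitabine combination (SD, n = 5). Against KCL-HO-1i alone it was 0.42 (-0.07 to 0.91) in the 5-FU combination and 0.43 (-0.06 to 0.92) in the gemcitabine combination on the log2 scale.

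Psmb8, Psmb9 and Psmb10 take the places of the constitutive subunits Psmb5, Psmb6 and Psmb7. Psmb5 ranged from 72.17 to 144 CPM over all 30 libraries, against 25.9 to 104 CPM for Psmb8. Within a library the log2 ratio of Psmb8 to Psmb5 was -1.05 ± 0.75 in vehicle and -0.50 ± 0.45 in 5-FU, and that of Psmb9 to Psmb6 was -3.17 ± 0.35 and -2.72 ± 0.46 (SD, n = 5). The ratio of Psmb10 to Psmb7 was -2.71 ± 0.55 in vehicle and -2.16 ± 0.42 in the 5-FU combination. These ratios set genes of different transcript length side by side, so only their differences between groups can be read, and the groups named here overlapped.

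Nlrc5, the transactivator, was the lowest and the most variable member. It stood at 3.48, 1.16, 2.64, 7.29 and 0.223 CPM in vehicle and at 4.60, 12.3, 2.13, 6.84 and 3.63 in 5-FU. The lowest vehicle value rests on 3 reads, and the vehicle and 5-FU tumours overlapped over most of their range. It stood at 1.22, 1.75, 2.56, 6.83 and 3.97 CPM in gemcitabine, at 1.22, 10.6, 2.09, 5.67 and 2.47 in KCL-HO-1i, at 1.81, 2.37, 10.7, 8.81 and 0.783 in the 5-FU combination, and at 2.60, 10.7, 5.78, 1.28 and 1.52 in the gemcitabine combination. Its log2 fold change in 5-FU against vehicle was 1.00 (-0.60 to 2.60), and with limma-voom 2.15 (unadjusted p = 0.0130, adjusted p = 0.628).

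As a group, the members lay on the same side of vehicle in some comparisons, with intervals that reached across 0 for all but Psmb9 in 5-FU. In 5-FU 9 of the 10 had a log2 fold change above 0 with a median of 0.31, where 50.2% of all tested genes were above 0 with a median of 0.00. In gemcitabine 2 of 10 were above 0 and the median was -0.14, beside 55.5% of all tested genes above 0. In KCL-HO-1i it was 6 of 10 with a median of 0.01, beside 47.9% of all. The 5-FU combination gave 9 of 10 and a median of 0.16, beside 51.4% of all. The gemcitabine combination gave 7 of 10 and 0.27, beside 52.5% of all. The members' medians moved when single libraries were left out. The 5-FU median was lowest without 5-FU replicate 2 (0.20) and highest without vehicle replicate 4 (0.48). That of gemcitabine was -0.29 without gemcitabine replicate 4 and 0.01 without vehicle replicate 4, and that of KCL-HO-1i was -0.27 without its replicate 2 and 0.18 without vehicle replicate 4. The 5-FU combination gave -0.03 without its replicate 3 and 0.31 without vehicle replicate 4, and the gemcitabine combination 0.05 without its replicate 2 and 0.40 without vehicle replicate 4. The 5 comparisons share the vehicle tumours, and the members vary together between tumours, so these counts are not independent of each other. At an unadjusted p under 0.05 the share of all tested genes was 3.83% in gemcitabine, 9.43% in KCL-HO-1i, 17.6% in the 5-FU combination and 19.8% in the gemcitabine combination, each beside 0 of the 10 members.

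**Figure D3:**
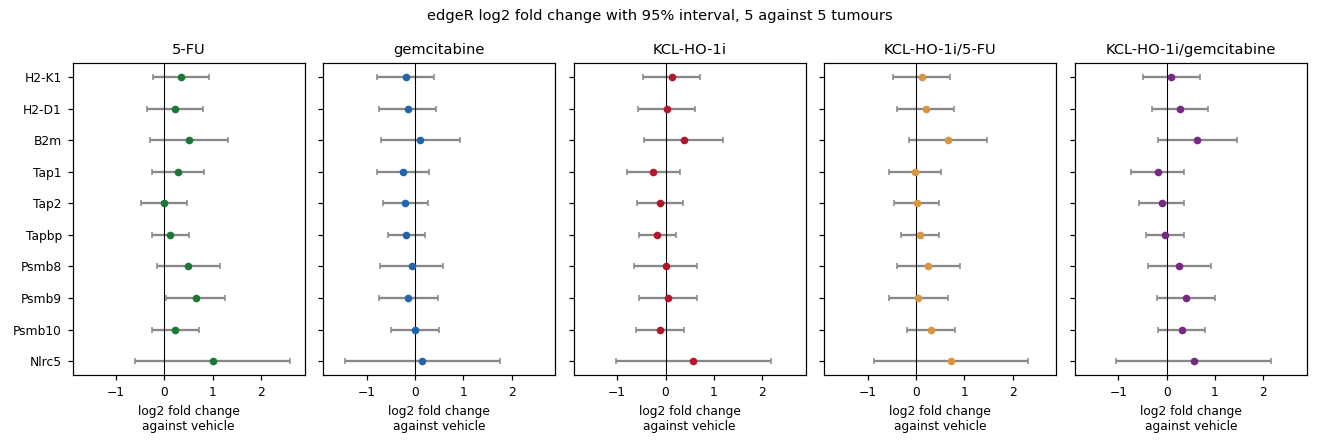
Log2 fold change of each class I gene against vehicle by edgeR (points) with its 95% interval (bars), in 1 panel per treatment and 5 against 5 tumours. In the 5-FU panel 9 of 10 points lie above 0 and only the interval of Psmb9 excludes it.

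KCL-HO-1i averaged over vehicle, 5-FU and gemcitabine backgrounds (15 against 15 tumours) gave the tightest intervals. The members' log2 fold changes ran from -0.16 in Tap1 (-0.48 to 0.15) to 0.35 in B2m (-0.12 to 0.82), with a median of 0.05, which was -0.07 without KCL-HO-1i replicate 2, -0.01 without 5-FU combination replicate 3 and 0.11 without vehicle replicate 4. B2m exceeded the mean of its background in 10 of 15 tumours and Tap1 in 6 of 15. None of the 10 members was past an unadjusted p of 0.05, against 23% of all tested genes. In the same comparison Ptprc, the pan-leukocyte marker CD45, was at 0.71 (0.27 to 1.15, adjusted p = 0.0650 by edgeR) and the macrophage marker Adgre1 at 0.87 (0.28 to 1.45, adjusted p = 0.0812). At an unadjusted p under 0.05 (edgeR), 8 of 10 macrophage, 5 of 6 leukocyte, 3 of 6 endothelial and 7 of 7 fibroblast genes were higher. So were 7 of 7 adipocyte and 7 of 7 skeletal muscle genes, beside 13.7% of all tested genes. The median log2 fold changes were 0.78, 0.72, 0.67, 1.41, 2.36 and 3.24 in this order. Of the 6 leukocyte genes 1 passed an adjusted p of 0.05 (0.0113 by edgeR). Of 8 luminal epithelial genes 0 were higher and 1 was lower at that unadjusted p. The part of this tissue makeup in the members' values was not tested. The T cell marker Cd8a, which had low counts, was at -0.49 (-1.25 to 0.26) and the epithelial marker Krt8 at -0.16 (-0.42 to 0.10). Of the T and NK cell list 4 of 10 genes were above 0, with a median of -0.06 and 0 at an unadjusted p under 0.05.

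Added to gemcitabine, KCL-HO-1i gave 10 of 10 members above 0 with a median log2 fold change of 0.32, from 0.06 in Tap1 to 0.54 in Psmb9. Without replicate 3 of the gemcitabine combination that median was 0.19. Added to 5-FU it gave 3 of 10 above 0 with a median of -0.13, which was 0.06 without 5-FU replicate 2 and -0.33 without replicate 3 of the 5-FU combination. The members' medians for the interactions were -0.14 with 5-FU and 0.31 with gemcitabine, and none of these values passed a test. Adding a chemotherapy to KCL-HO-1i gave medians of 0.20 for 5-FU and 0.19 for gemcitabine. In each 8 of 10 members were above 0, beside 51.3% and 54.1% of all tested genes. Without KCL-HO-1i replicate 2 the members' medians were 0.51 and 0.53, and without replicate 3 of the combination concerned they were -0.04 and 0.06. At an unadjusted p under 0.05 the share of all tested genes was 11.4% for the 5-FU combination against 5-FU, 13.5% for the gemcitabine combination against gemcitabine, 16.9% for the 5-FU combination against KCL-HO-1i and 2.66% for the gemcitabine combination against KCL-HO-1i. It was 8.53% for the interaction with 5-FU and 1.34% for that with gemcitabine, and 0 members were called in all 6. Without KCL-HO-1i replicate 2, 4 members (B2m, Tap1, Tapbp and Psmb10) were past that unadjusted threshold in the 5-FU combination against KCL-HO-1i, where 16.4% of all genes were past it in the same fit, and the medians of the interactions were 0.28 with 5-FU and 0.57 with gemcitabine. They were -0.35 with 5-FU without replicate 3 of the 5-FU combination and 0.10 without 5-FU replicate 2, and 0.08 with gemcitabine without vehicle replicate 4.

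Most of the spread of the members lay between tumours of a group. The share of variance between the 6 groups ran from 5.83% in Tap2 to 29.3% in Psmb9, where the median of all tested genes was 20.5%. The SD within groups on the log2 scale was 1.26 in Nlrc5, higher than in 93.3% of tested genes, 0.63 in B2m and between 0.31 and 0.52 in the other 8, with a median of 0.33 over all tested genes. The same tumours were high for several members. 5-FU replicate 2 was among the 3 highest of 30 libraries for 7 of the 10 members, KCL-HO-1i replicate 2 for 6 and 5-FU combination replicate 3 for 5. KCL-HO-1i replicate 1 was among the 3 lowest for 6 members and vehicle replicate 5 for 5.

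With the group means removed, the members varied together between tumours. Over the 45 pairs of members the Pearson r had a median of 0.664 and ran from 0.309 to 0.928, and all 45 were positive (n = 30 tumours). The median Spearman rho was 0.639, between 0.398 and 0.907. A permutation test gave an unadjusted p under 0.05 in 44 pairs for r and in 45 for rho, and the same counts after Benjamini-Hochberg adjustment over the 45 pairs. In each pair the 2 tumours farthest from the median of its first gene were then left out, a choice made anew per pair. The median r was then 0.584 and the lowest 0.259. The median r over all pairs of tested genes was -0.00582. Within other gene lists it was higher than in the members for type I interferon targets (0.850), class II (0.847), macrophage (0.698) and leukocyte genes (0.842). The same held for fibroblast (0.884), endothelial (0.860), adipocyte (0.929) and skeletal muscle genes (0.943). Lower medians were found for interferon-gamma targets (0.502), luminal epithelial (0.466), T and NK cell (0.458) and other class I pathway genes (0.106). Removing the first number of the sample code in the labels as well as the group gave a median of 0.650, an alternative chosen after seeing the data.

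By Pearson r the closest pairs joined the parts of the surface molecule. H2-D1 and B2m had an r of 0.928 (rho 0.907), H2-K1 and B2m 0.914 (rho 0.902), and H2-K1 and H2-D1 0.890 (rho 0.875). Nlrc5 followed H2-D1 with an r of 0.880 (rho 0.900) and B2m with 0.867 (rho 0.905), so that by rho these pairs, and Psmb8 with Psmb10 (rho 0.891), lay above H2-K1 and H2-D1. B2m shares no 31-base word with any other gene and lies on another chromosome than the heavy chains, while 14.3% of the words of H2-K1 also occur in H2-D1. The part of shared sequence or position in these values was not tested. A second set of close pairs joined tapasin and the immunoproteasome, with an r of 0.86 for Tapbp and Psmb10, 0.83 for Psmb8 and Psmb10, and 0.82 for Psmb8 with Tapbp and with Psmb9. Psmb10 had the lowest median r to the other members, 0.471, and its pair with Nlrc5 was the weakest at 0.309 (permutation p = 0.0966, adjusted 0.0966), with a rho of 0.411. Pairs within chromosome 17 had a median r of 0.679 (21 pairs) and the other 24 pairs 0.656.

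**Figure D4:**
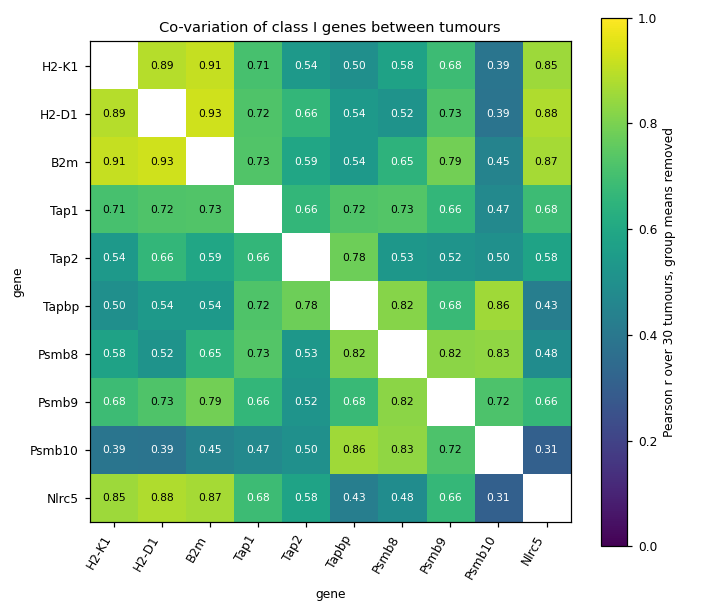
Pearson r of log2 CPM for each pair of class I genes over 30 tumours with the group means removed, shown as colour and number. The heavy chains, B2m and Nlrc5 form 1 close block and Tapbp, Psmb8 and Psmb10 another, and the lowest value is 0.309 for Psmb10 and Nlrc5.

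The genes most like the members' mean profile included known interferon targets. The profile is the mean of the 10 members' log2 CPM, with group means removed and each scaled to its own spread, and likeness is Pearson r over 30 tumours among 13653 other genes. Igtp, an interferon-induced GTPase, led with an r of 0.916, and Irgm2 (0.895) and Iigp1 (0.858) are of the same family. H2-Q7 and H2-Q6, class I genes of the H2-Q group, had an r of 0.898 each and share sequence with the heavy chains, so reads may be split among them. Ube2l6, which conjugates the interferon-induced ISG15, stood at 0.895, Ifit3 at 0.873, Herc6 at 0.871, Slfn8 at 0.853 and Tor3a at 0.841. These are descriptions of 30 libraries and carry no test.

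Among the lists, the mean of the 39 other class I pathway genes had the highest r with the profile, 0.926, although its genes had a median r of 0.272. The mean of 13 interferon-gamma targets had an r of 0.862 and that of 13 type I interferon targets 0.773, while gene by gene the order was the opposite, with median r of 0.634 and 0.722. The mean of 5 class II genes had 0.411, of 10 T and NK cell genes 0.424, of 6 pan-leukocyte genes 0.312 and of 10 macrophage genes 0.295. Luminal epithelial genes (8) stood at -0.402, fibroblast genes (7) at 0.285, endothelial genes (6) at 0.278, adipocyte genes (7) at 0.189 and skeletal muscle genes (7) at 0.023. The part of cell composition in the members' spread was not tested.

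**Figure D5:**
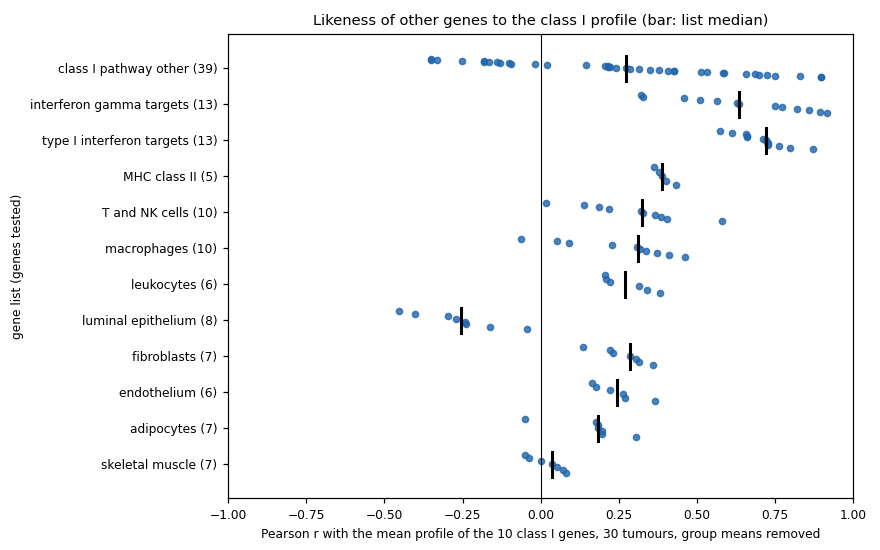
Pearson r of each gene of 12 lists with the mean profile of the 10 class I genes over 30 tumours with group means removed (points), with a bar at the list median. Interferon target lists have medians of 0.634 and 0.722, and luminal epithelial genes have a median of -0.256.

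Of 42 other genes of the class I pathway, 39 were tested and 0 passed an adjusted p of 0.05 in any comparison (edgeR). At an unadjusted p under 0.05 the counts of the 39 were 0 higher and 0 lower in 5-FU, 0 and 1 in gemcitabine, and 0 and 0 in KCL-HO-1i. They were 5 and 2 in the 5-FU combination, beside 9.79% higher and 7.84% lower of all tested genes, and 3 and 0 in the gemcitabine combination, beside 11.7% and 8.04%. For KCL-HO-1i averaged over its backgrounds they were 5 and 3, beside 13.7% and 9.22% of all. In the other 6 comparisons they were 0 to 4 and 0 to 3, beside 0.644% to 7.47% and 0.695% to 9.43% of all. The smallest p for the KCL-HO-1i average belonged to Ifnar2, a subunit of the type I interferon receptor, at 0.28 (0.13 to 0.43, adjusted p = 0.0525), followed by Ifngr2, a subunit of the interferon-gamma receptor, at 0.19 (0.05 to 0.33, adjusted p = 0.103) and by H2-M3, a class I heavy chain that presents formylated peptides, at 0.67 (0.14 to 1.21, adjusted p = 0.126). The lowest were Thop1, a cytosolic peptidase that trims peptides, at -0.53 (-0.86 to -0.20, adjusted p = 0.0652), the proteasome activator Psme3 at -0.22 (-0.38 to -0.06) and the peptidase Tpp2 at -0.12 (-0.21 to -0.03). Irf1, an interferon-induced transcription factor, was at 0.16 (-0.04 to 0.36).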

How the data were processed

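Stranded RNA sequencing libraries were made from 30 tumours. Per the labels and methods, the authors checked reads with FastQC 0.11.9, aligned with STAR 2.7.9a, quantified with Salmon 1.9.0 on mm10 and summed transcripts to genes. The annotation release is not given in the sources used here. The deposited values are expected counts: 38.0% are not whole and totals differ, although the methods speak of TPM. They were rounded.

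Groups came from the labels. Counts were fitted with edgeR 4.0.16 in R 4.3.3 (TMM, filterByExpr with a minimum count of 10, robust quasi-likelihood, 6 group means, 30 libraries) in 12 contrasts, two-sided, with Benjamini-Hochberg adjustment over 13663 genes and a threshold of 0.05. Intervals are 95%. The labels carry a different sample code for each of the 30 libraries, whose meaning is not stated. Its first number, with 13 values, was used as a factor (the code number). Read floors cover counting error only. Correlations used log2 CPM (prior count 2) and 100000 permutations. Alternatives were RLE, tests without a filter or on genes averaging 50 counts or more, a replicate block, the code number, only the groups compared, DESeq2 1.42.0, limma-voom (limma 3.58.1) and leaving out each library. Removing the code number for the median r was added after the data were seen. Transcript lengths and positions are from GENCODE M21 and promoters from RefSeq.

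The members and lists were chosen with earlier results of these data known. Named genes were the 10 members, pathway genes with up to 3 smallest p in each direction, Irf1, Psmb5 to Psmb7, fixed cell markers, and the 10 genes most like the members. One gene this rule names is not reported here. Replicate numbers did not pair samples (mean r of 0.00284 over 75 pairs). The pipeline was tested on simulated data.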

Additional observations from a re-analysis of the deposited data

Results flagged for a closer look

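Tap1, a subunit of the peptide transporter, was at 74.5 CPM in KCL-HO-1i replicate 2, while the other 4 tumours of that group lay between 29.3 and 38.3 CPM. On log2 CPM the gap to the nearest tumour was 0.713 of the range of the group, above the 0.71 that Dixon's test allows for 5 values. On that scale it was the single one of 60 sets of 5 values (10 genes in 6 groups) past that value, and chance alone gives about 1 in 20. On CPM without the log, 5 of the 60 were past it: Tap1 in KCL-HO-1i replicate 2 (0.800) and in 5-FU replicate 2 (0.759), H2-D1 in KCL-HO-1i replicate 2 (0.792) and in 5-FU combination replicate 3 (0.731), and B2m in KCL-HO-1i replicate 2 (0.751). No member moved opposite ways in every tumour between backgrounds.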

How the results depend on the processing

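No member passed an adjusted p of 0.05 under any alternative run, and the lowest adjusted p was 0.198. Direction changed in 271 cases, counted over the 10 members, the 12 comparisons and the 38 alternatives, not all of which cover every comparison. The single difference at an unadjusted p under 0.05 by edgeR, Psmb9 in 5-FU against vehicle, was not among them. Psmb9 in 5-FU against vehicle stayed above 0 in all 18 alternatives, from 0.38 to 0.80, and 10 kept an unadjusted p under 0.05. With the replicate number as a block it was 0.61 and the count of members at that p was 0, against 1 without it. The numbers did not pair the samples. With the code number as a factor the log2 fold change was 0.38 and the count 0. Vehicle and 5-FU tumours share no code number, so it and the group cannot be told apart there. The count was 2 with limma-voom. Leaving out single libraries gave 0 to 2, where 3.89% of all tested genes were past that p in the main fit.

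In the other comparisons the count was 0. It became 1 for the 5-FU combination against 5-FU with no filter, the replicate block, the code number, DESeq2 or limma-voom, and 2 with limma-voom for the interaction with 5-FU. With only the groups compared it became 1 for the gemcitabine combination against gemcitabine and for each combination against KCL-HO-1i. Leaving out single libraries gave 0 to 1 for KCL-HO-1i and the 5-FU combination against vehicle, the KCL-HO-1i average, the 5-FU combination against 5-FU, the gemcitabine combination against KCL-HO-1i and the interaction with 5-FU. The 1 was Tap1 (KCL-HO-1i and the average) or Psmb10 without KCL-HO-1i replicate 2, B2m without vehicle replicate 4, and Psmb9 without 5-FU replicate 1 or 3 or without 5-FU combination replicate 3. It gave 0 to 4 for the 5-FU combination against KCL-HO-1i, where the 4 (B2m, Tap1, Tapbp and Psmb10) came without KCL-HO-1i replicate 2. The cause was not tested.

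The members' median log2 fold change moved beyond 0.386, the SD between tumours, with the code number, to -0.50 for KCL-HO-1i, -0.18 for the gemcitabine combination, 0.27 for the interaction with 5-FU and 0.85 for that with gemcitabine. Vehicle shares 1 code number with the gemcitabine combination and 0 with each other group. All 4 of these values involve vehicle, so they rest on that 1 number and cannot tell the group from the code number. For the interaction with 5-FU single libraries moved it from -0.35 to 0.28, the latter without KCL-HO-1i replicate 2. The median r stayed between 0.609 and 0.712 when single libraries were left out.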
